A study of Rattus norvegicus with 15 samples.

Results

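The macrophage identity and complement C1q genes followed here, in the rat mammary gland weeks after a pregnancy or a course of an estrogen and a progestin, were Csf1r, Cx3cr1, Tyrobp, Cd68, Cd163, Mrc1, Msr1, C1qa, C1qb and C1qc. They were chosen by gene symbol, and they are 10 of the 14239 genes that the array table links to a gene identifier. Together they have 11 probe sets out of 31042 tested. Cd163 has 2, and the brighter one over all arrays stands for it. Symbols matched for 8 of the genes, while C1qc and Msr1 stood under older names in the table and were matched by their Entrez identifier.

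The study used virgin female Lewis rats, 3 months old, and measured the left inguinal mammary gland, 1 array per rat and 5 rats in each of 3 groups. Rats of the pregnancy group carried sham capsules, went through a gestation of 21 to 23 days and had their pups removed 4 to 6 hours after delivery. Rats of the hormone group carried 2 capsules, with 100 µg of the synthetic estrogen ethynyl estradiol and 30 mg of the progestin megestrol acetate, for 21 days. Rats of the control group were virgin and carried sham capsules for 21 days. All glands were taken after about 49 days without exposure, in metestrus, so neither a pregnant nor a hormone-treated gland was measured at the time of exposure. The tissue was a whole gland, with its fat, vessels and any lymph node left in the piece. All 9 markers of luminal epithelium that were measured had a present call, the array software's statement that a probe set stands above background.

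Macrophages live in every part of the mammary gland, around ducts, in the fat and among the vessels, and they clear dying cells when the gland regresses after lactation. Survival of most tissue macrophages depends on signals through the receptor encoded by Csf1r. C1q, which starts the classical complement pathway and tags dying cells for uptake, is made mainly by macrophages rather than by the liver. The comparisons ask whether such general macrophage genes stayed higher in glands with a past pregnancy or hormone exposure.

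Promoter letters are shown for 4 of the genes. Cd68 was taken because its pregnancy values all lay above the controls, although it did not pass the test below. Tyrobp separated in the same way, but its promoter was not available. C1qa, C1qb and Mrc1 were taken because they varied together from rat to rat. Sequences are from RefSeq in build GRCr8, whose table holds 7 of the 10 genes, and run from -200 to -1 relative to the start site, 5′ to 3′ on the gene's strand. Capitals mark the letters GAGGAA on either strand, the core bound by PU.1, a transcription factor that myeloid cells require (read on the printed strand, TTCCTC is the same site on the opposite strand). Cd68 lies on the minus strand at chr10:54882442-54882641, C1qa on the minus strand at chr5:154419934-154420133, C1qb on the minus strand at chr5:154407828-154408027 and Mrc1 on the plus strand at chr17:82157525-82157724.
Cd68: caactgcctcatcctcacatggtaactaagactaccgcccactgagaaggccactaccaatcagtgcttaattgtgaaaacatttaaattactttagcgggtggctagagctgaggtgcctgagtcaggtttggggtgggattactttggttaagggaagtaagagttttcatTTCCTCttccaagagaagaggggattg
C1qa: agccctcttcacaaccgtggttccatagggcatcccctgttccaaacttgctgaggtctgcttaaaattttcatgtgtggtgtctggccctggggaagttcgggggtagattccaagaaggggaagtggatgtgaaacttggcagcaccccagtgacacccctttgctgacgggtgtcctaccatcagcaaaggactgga
C1qb: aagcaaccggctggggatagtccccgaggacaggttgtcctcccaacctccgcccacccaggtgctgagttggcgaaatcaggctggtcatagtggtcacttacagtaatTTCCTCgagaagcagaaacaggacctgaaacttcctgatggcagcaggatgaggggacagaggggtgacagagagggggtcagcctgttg
Mrc1: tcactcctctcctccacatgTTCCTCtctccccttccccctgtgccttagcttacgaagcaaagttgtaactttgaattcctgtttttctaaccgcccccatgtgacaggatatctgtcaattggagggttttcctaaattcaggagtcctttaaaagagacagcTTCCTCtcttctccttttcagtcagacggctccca
The GAGGAA match begins at position -27 in Cd68, at -90 in C1qb and at -180 and -35 in Mrc1, and C1qa has none in this window. Of the 7 genes, 4 had a match, and 19.0% of all 33469 promoter windows of the same length did. The letters TATAAA in the sense direction occur in 0 of the 7 genes and in 6.59% of all windows. The 3 C1q genes lie next to each other on chromosome 5 in RefSeq's gene table of this build, with 0 genes between them. Spi1, which encodes PU.1, was not measured.

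None of the 10 genes passed the test in any comparison, so a rise of general macrophage genes was not shown. All values are log2 expression, and a difference of 1 is a doubling. After pregnancy all 10 were nominally higher than in controls, with a median difference of 0.20 against 0.019 over all probe sets. After hormones all 10 were again nominally higher, with a median of 0.24 against 0.031. Directions of this kind were common, since 54.7% of all probe sets lay above 0 for pregnancy minus control and 58.0% for hormone minus control. In whole tissue, more macrophages and more RNA of these genes per macrophage cannot be told apart.

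At an adjusted p under 0.05 (limma, Benjamini-Hochberg over all probe sets), 0 of the 10 genes passed for pregnancy minus control, where 0.197% of all probe sets did, and the smallest adjusted p was 0.0894. For hormone minus control 0 of 10 passed, beside 0.0290% of all probe sets, with a smallest adjusted p of 0.144. At an unadjusted limma p under 0.05 the counts were 2 of 10 after pregnancy, beside 21.9% of all probe sets, and 4 of 10 after hormones, beside 20.7%. The pregnancy share is near the background of that comparison. The authors' deposited table called 0 of the 10 genes in each comparison. It called 300 probe sets for pregnancy minus control, 5 for hormone minus control and 421 for both exposures against controls. The fit used here called 61, 9 and 74. In the authors' values the smallest adjusted p of the 10 genes was 0.0919 for pregnancy minus control. It was 0.0742 for both exposures against controls, each time for Cd68.

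**Figure D1:**
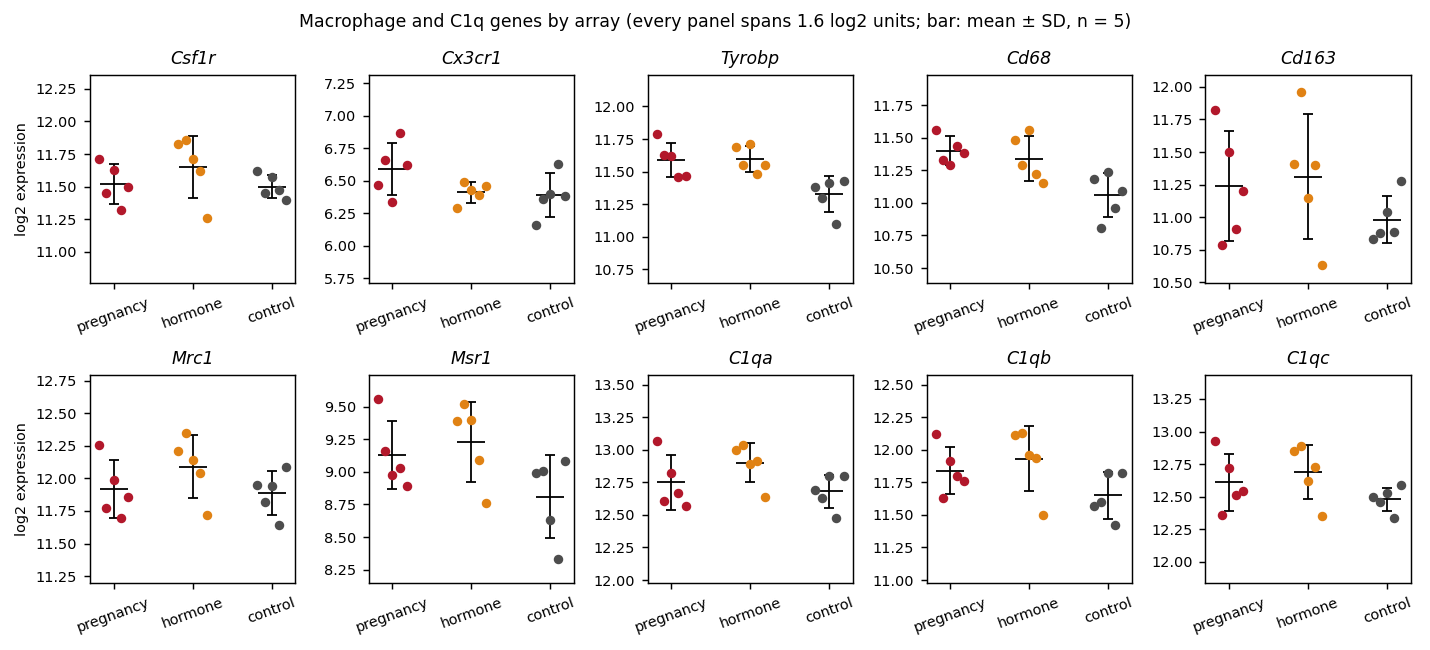
Log2 expression of each gene (y axis, every panel spanning 1.6 units) in the pregnancy, hormone and control groups (x axis), with 1 point per array and bars for the mean ± SD of 5 arrays. Tyrobp in both exposed groups and Cd68 after pregnancy lie wholly above the controls, whereas the groups of the other genes overlap.

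Cd68 encodes a glycoprotein of lysosomes and endosomes that is abundant in phagocytes and widely used to stain them. It read 11.56, 11.33, 11.29, 11.44 and 11.38 in pregnancy glands, 11.48, 11.29, 11.56, 11.22 and 11.15 in hormone glands, and 11.18, 10.81, 11.24, 10.96 and 11.09 in control glands. All 5 pregnancy arrays stood above the highest control, and 3 of the 5 hormone arrays did. Pregnancy minus control was 0.34 (SE 0.10, 95% interval 0.14 to 0.55), a 1.27-fold ratio, with an adjusted p of 0.0894 by limma. Hormone minus control was 0.28 (SE 0.10, 95% interval 0.08 to 0.49), a 1.22-fold ratio, with an adjusted p of 0.162 by limma. An exact two-sided permutation test of this gene alone gave p = 0.00794 for pregnancy, the smallest that 5 against 5 arrays allow, and p = 0.0397 for hormones.

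Tyrobp encodes DAP12, the membrane adaptor through which TREM2 and other receptors signal in myeloid cells and natural killer cells. Its levels were 11.79, 11.63, 11.62, 11.46 and 11.47 in pregnancy glands, 11.69, 11.55, 11.71, 11.48 and 11.55 in hormone glands, and 11.38, 11.30, 11.41, 11.10 and 11.43 in control glands. Every array of both exposed groups lay above every control, though by as little as 11.46 in a pregnancy gland against 11.43 in a control. The difference was 0.27 for pregnancy minus control (SE 0.08, 95% interval 0.10 to 0.44) and also 0.27 for hormone minus control (SE 0.08), ratios of 1.20 and 1.21. Adjusted p by limma was 0.102 for pregnancy and 0.144 for hormones.

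When the mean of pregnancy and hormone glands was set against controls, Tyrobp differed by 0.27 (SE 0.07, 95% interval 0.12 to 0.42) with an adjusted p of 0.0713 by limma, and Cd68 by 0.31 (SE 0.08) with 0.0727. All 10 exposed arrays lay above all controls for Tyrobp and 8 of 10 did for Cd68, with exact permutation p of 0.000666 for Tyrobp and 0.002 for Cd68. All 10 genes were nominally higher, beside 57.3% of all probe sets. In this comparison 0 of the 10 genes passed by limma, beside 0.238% of all probe sets, and at an unadjusted p under 0.05 the count was 4, beside 25.0%. Complete separation upward occurred for 2 of the 10 genes after pregnancy, where 2.49% of all probe sets showed it, and for 1 of 10 after hormones, where 1.48% did. For both exposures against controls it occurred for 1 of 10, beside 0.441%. In this combined comparison Tyrobp did pass, at an adjusted p of 0.0452 by limma, when control 2 was left out, where 11.2% of all probe sets passed, and at 0.0485 without control 6, where 3.47% did.

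The receptor at the head of the macrophage survival pathway differed least after pregnancy. Csf1r, which binds CSF1 and IL34, read 11.71, 11.45, 11.63, 11.32 and 11.50 in pregnancy glands, 11.83, 11.86, 11.71, 11.62 and 11.26 in hormone glands, and 11.62, 11.45, 11.57, 11.47 and 11.40 in control glands. Pregnancy arrays reached both above and below the controls, and the hormone group held both the highest value and the lowest. Pregnancy minus control was 0.02 (SE 0.10, 95% interval -0.20 to 0.25), so ratios from 0.87 to 1.19 were within the interval. Hormone minus control was 0.15 (SE 0.10, 95% interval -0.07 to 0.38), with an adjusted p of 0.403 by limma.

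Cx3cr1, the receptor for the chemokine CX3CL1, which is found on patrolling monocytes, microglia and some tissue macrophages, was the dimmest. It had a present call on 4 of 5 pregnancy, 2 of 5 hormone and 1 of 5 control arrays, while the other 9 genes had one on all 15 arrays. Its readings were 6.47, 6.66, 6.34, 6.87 and 6.62 in pregnancy glands, 6.29, 6.49, 6.43, 6.39 and 6.46 in hormone glands, and 6.16, 6.36, 6.40, 6.63 and 6.38 in control glands. The groups overlapped, and most arrays had no present call. Pregnancy minus control was 0.20 (SE 0.10, adjusted p 0.237 by limma), and hormone minus control was 0.02 (SE 0.10, adjusted p 0.904).

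Among the scavenger and lectin receptors, Msr1, which takes up modified lipoproteins, had the widest hormone difference. Its levels were 9.56, 9.16, 8.98, 9.03 and 8.89 in pregnancy glands, 9.39, 9.52, 9.40, 9.09 and 8.76 in hormone glands, and 8.99, 9.01, 8.63, 8.33 and 9.08 in control glands. Hormone 1 to 4 stood above every control, and hormone 5 stood among the controls. Hormone minus control was 0.42 (SE 0.17, 95% interval 0.05 to 0.80), a 1.34-fold ratio, with an adjusted p of 0.199 by limma. Pregnancy minus control was 0.32 (SE 0.17, 95% interval -0.05 to 0.69), with an adjusted p of 0.29.

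Cd163, the scavenger receptor for haemoglobin bound to haptoglobin, varied most between rats of the exposed groups. It read 11.82, 10.79, 11.50, 10.91 and 11.20 in pregnancy glands, 11.41, 11.96, 11.15, 11.40 and 10.63 in hormone glands, and 10.83, 10.88, 11.04, 10.89 and 11.28 in control glands. Both exposed groups spanned more than the controls and held the lowest readings as well as the highest. The SD was 0.42 after pregnancy, 0.48 after hormones and 0.18 in controls, and the differences of 0.26 and 0.33 (SE 0.22) had adjusted p of 0.499 and 0.401 by limma. The second probe set of the gene differed by 0.20 after pregnancy and 0.40 after hormones (SE 0.23).

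Mrc1 encodes the mannose receptor CD206, which takes up glycoproteins and marks the resident macrophages of fat and connective tissue. Its mean was 11.92 ± 0.22 in pregnancy glands, 12.09 ± 0.24 in hormone glands and 11.89 ± 0.17 in control glands (SD, n = 5 each). The pregnancy difference was 0.03 (SE 0.13, 95% interval -0.24 to 0.30) and the hormone difference 0.20 (SE 0.13, adjusted p 0.356 by limma).

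The 3 C1q chains assemble into 1 molecule, and they were among the brightest probe sets of the 10 genes, although brightness of different probe sets does not rank transcripts. C1qb was at 12.12, 11.63, 11.91, 11.80 and 11.76 in pregnancy glands, 12.11, 12.13, 11.96, 11.94 and 11.50 in hormone glands, and 11.57, 11.60, 11.82, 11.42 and 11.82 in control glands. Pregnancy 1 and hormone 1 and 2 were the high arrays, and hormone 5 lay within the controls. Hormone minus control was 0.28 (SE 0.12, 95% interval 0.02 to 0.54, adjusted p 0.224 by limma), and pregnancy minus control was 0.19 (SE 0.12, adjusted p 0.364).

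C1qa averaged 12.75 ± 0.21 in pregnancy glands, 12.90 ± 0.15 in hormone glands and 12.68 ± 0.13 in control glands (SD, n = 5 each). Its hormone difference of 0.21 (SE 0.10) had an adjusted p of 0.25 by limma, and its pregnancy difference was 0.07 (SE 0.10). C1qc averaged 12.61 ± 0.22 in pregnancy glands, 12.69 ± 0.21 in hormone glands and 12.48 ± 0.09 in control glands, with differences of 0.13 after pregnancy and 0.21 after hormones (SE 0.11). The C1q chains thus all had nominally higher means after each exposure, and none passed.

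**Figure D2:**
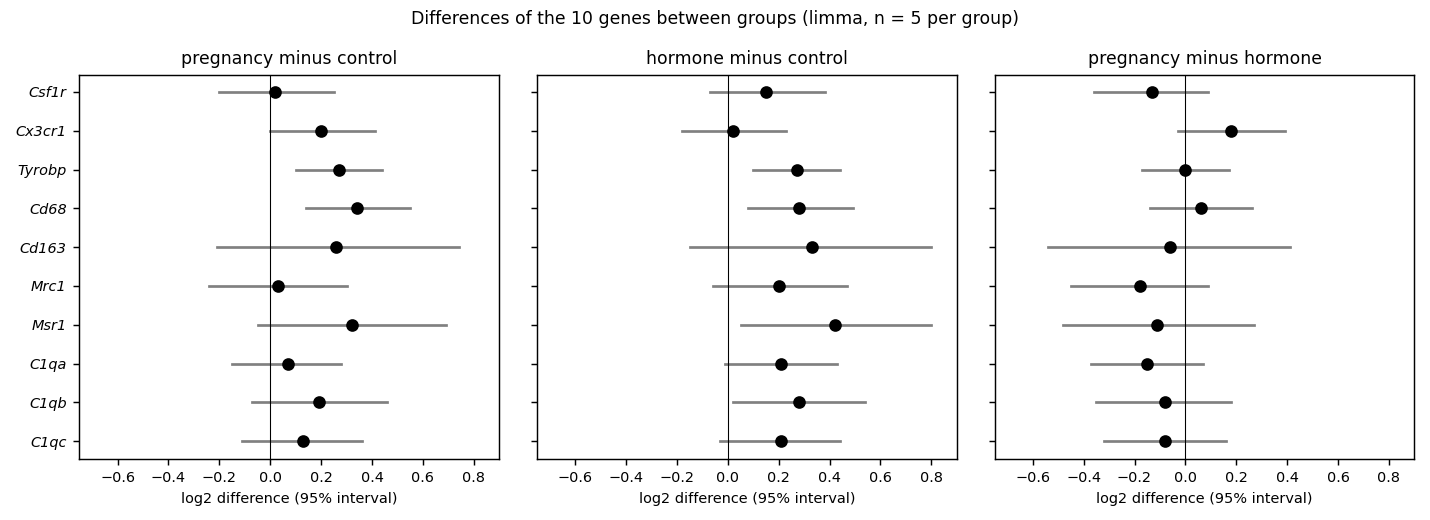
Log2 difference (x axis) with its 95% interval for each gene (y axis) in 3 panels, setting pregnancy against control, hormone against control and pregnancy against hormone, from limma with 5 arrays per group. Intervals for Cd68 and Tyrobp lie above 0 in both comparisons with controls, as do those of Msr1 and C1qb for hormones, while that of Csf1r spans 0 in each.

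The 2 exposures were also compared with each other. Pregnancy minus hormone ran from -0.18 for Mrc1 to 0.18 for Cx3cr1, 2 of the 10 genes were nominally higher after pregnancy, beside 49.3% of all probe sets, and the smallest adjusted p was 0.556, for Cx3cr1. At an adjusted p under 0.05 by limma 0 of 10 passed, beside 0.00322% of all probe sets, and 0 of 10 had an unadjusted p under 0.05, beside 9.96%. These intervals bound the difference without showing that the exposures act alike.

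Rats of the same group differed, and several genes shared these differences. Csf1r, C1qa, C1qb, C1qc, Cd163 and Mrc1, a grouping made after their values were seen, went up and down together over the 15 arrays. Their 15 pairs had Pearson correlations of 0.76 to 0.95, of 0.73 to 0.94 with the group means removed, and of 0.59 to 0.93 without the 2 arrays farthest from the median. Among all 45 pairs, 29 had an adjusted permutation p under 0.05.

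C1qb and C1qc had the closest pair of profiles (r = 0.95, rho = 0.95, permutation p = 1e-05 for r, the smallest the resamples can give, adjusted 7.5e-05, and r = 0.93 without the 2 farthest arrays). Csf1r and Mrc1 also varied together (r = 0.85, permutation p = 9e-05, adjusted 0.000405, rho = 0.81 with permutation p = 0.00036, and r = 0.79 without the 2 farthest). Cd68 and Tyrobp followed each other (r = 0.82, permutation p = 0.00029, adjusted 0.000964, rho = 0.79 with permutation p = 0.00092, and r = 0.73 without the 2 farthest). With the group means removed their r was 0.61, beside 0.94 for C1qb with C1qc and 0.82 for Csf1r with Mrc1. The permutations ran over all 15 arrays, so differences between groups enter these p values. Cd68 with Csf1r reached r = 0.45 and rho = 0.52, with permutation p of 0.094 for r and 0.052 for rho, and did not pass. No pair of Cx3cr1 with another member of the set passed, at r from -0.49 to 0.18. With the group means removed these r values were all negative, from -0.64 to -0.19.

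**Figure D3:**
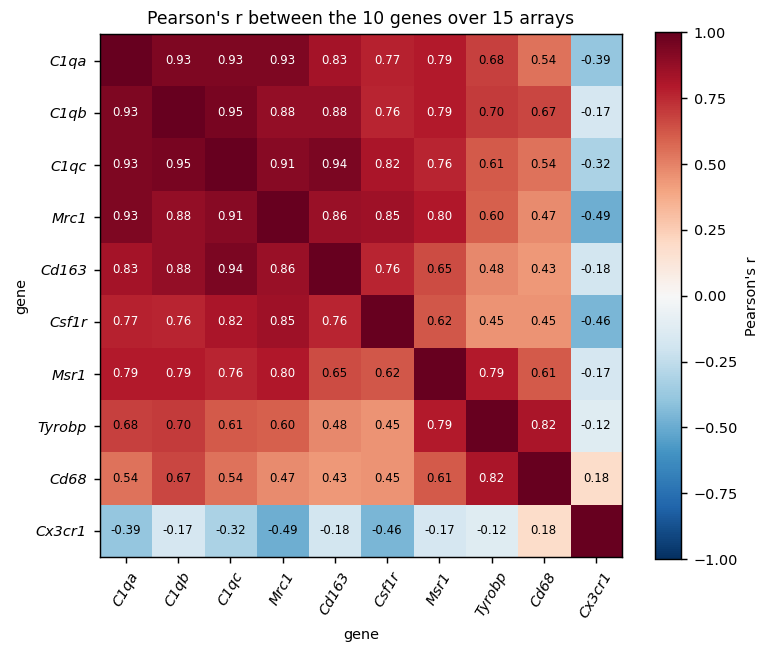
Pearson's r between each pair of genes (both axes) over the 15 arrays, on a colour scale from -1 to 1. A block of high values holds C1qa, C1qb, C1qc, Mrc1, Cd163 and Csf1r, at 0.76 to 0.95, and Cx3cr1 stands apart at -0.49 to 0.18.

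Taking the mean of the 10 genes relative to the 15 arrays, the pregnancy arrays were at 0.31, -0.08, 0.06, -0.05 and -0.04, the hormone arrays at 0.21, 0.29, 0.14, 0.06 and -0.21, and the control arrays at -0.13, -0.18, -0.08, -0.29 and -0.02. Pregnancy 1 and 3 and hormone 1 to 4 stood above all controls, and hormone 5 stood below 4 of the 5 controls. Of 10855 genes ranked by correlation with this mean, the most alike were Fxyd2 (r = 0.917), C5ar1 (0.901), Asgr2 (0.891), Ctss (0.886), Ccr1 (0.867), Clec10a (0.863), Ptpro (0.861) and Alox5ap (0.859). C5ar1 is the receptor for the complement fragment C5a, Ctss is a lysosomal protease of antigen-presenting cells and Ccr1 is a chemokine receptor of myeloid cells. Which cells expressed these 8 genes, Fxyd2, Asgr2 and Ptpro included, was not tested. Their hormone differences ran from 0.19 for Ptpro to 0.46 for Ccr1, and none of these 8 genes passed in either comparison with controls.

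**Figure D4:**
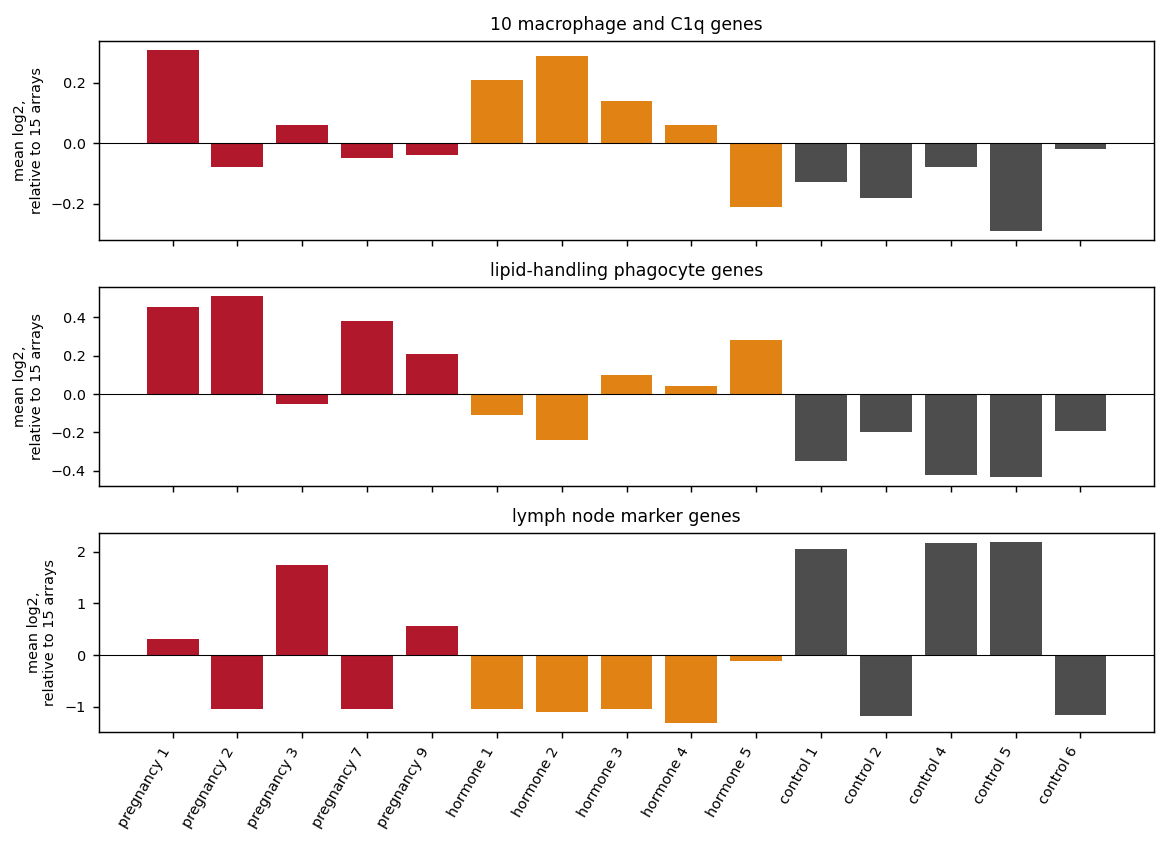
Mean log2 level of the 10 macrophage and C1q genes, of the lipid-handling phagocyte genes and of the lymph node marker genes (y axes, relative to the mean of all 15 arrays) on each array (x axis). The 10 genes are at 0.31 on pregnancy 1 and -0.21 on hormone 5, and lymph node markers reach 2.19 on control 5.

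Among other macrophage genes, Itgam and Mpeg1 passed upward after pregnancy with all arrays, but not in every alternative fit. Of 24 listed receptors and identity genes, 19 were measured. Of these, 16 were nominally higher after pregnancy, beside 54.7% of all probe sets, with a median of 0.11. By limma 2 passed, both upward, beside 0.197% of all probe sets. Itgam, the CD11b integrin of myeloid cells, averaged 8.51 ± 0.12 in pregnancy glands, 8.34 ± 0.15 in hormone glands and 8.07 ± 0.08 in control glands (SD, n = 5 each), a pregnancy difference of 0.44 (SE 0.08, adjusted p 0.0449). Mpeg1, a pore-forming protein of macrophages, averaged 8.24 ± 0.07 in pregnancy glands, 7.52 ± 0.30 in hormone glands and 7.27 ± 0.34 in control glands, a difference of 0.97 (SE 0.16, adjusted p 0.0365). Neither gene passed without control 1, 4 or 6, hormone 1 or 4, or pregnancy 1, 7 or 9, only Mpeg1 passed without hormone 3 or pregnancy 2, and 3 genes passed without control 2, control 5 or pregnancy 3. In a fit of the pregnancy and control arrays alone neither passed (adjusted p 0.103 for Itgam and 0.0848 for Mpeg1), and Itgam did not pass with trended, robust moderation (0.0547) or with muscle content as a covariate (0.076). After hormones 0 of the 19 passed by limma and the median was 0.25. At an unadjusted p under 0.05 there were 8, beside 20.7% of all probe sets. The smallest p values there were for Itgam (0.27, adjusted 0.143) and Adgre1, which encodes F4/80 (0.60, SE 0.18, adjusted 0.146).

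The list of lipid-handling phagocyte genes, which also holds proteases such as Mmp12 and Ctsd, had the most calls after pregnancy. Of 20 measured out of 21, 18 were nominally higher after pregnancy, beside 54.7% of all probe sets, with a median of 0.31. By limma 7 passed, all upward, beside 0.197% of all probe sets. Gpnmb, a lysosomal membrane glycoprotein, averaged 12.96 ± 0.30 in pregnancy glands, 12.51 ± 0.25 in hormone glands and 11.64 ± 0.23 in control glands (SD, n = 5 each), a pregnancy difference of 1.32 (SE 0.15, adjusted p 0.00789). Mmp12, the macrophage elastase, differed by 2.22 (SE 0.35, adjusted p 0.031), Npc2, which carries cholesterol out of lysosomes, by 0.43 (SE 0.07, adjusted p 0.0382) and Ctsd, a lysosomal protease, by 0.54 (SE 0.09, adjusted p 0.0408). Trem2, the lipid-sensing receptor that signals through the Tyrobp product, passed at an adjusted p of 0.031, but it had no present call on a pregnancy or control array, so no size is given. The count was 1, Gpnmb, without any single one of control 1 or 4, hormone 4, or pregnancy 1, 7 or 9, 3 without hormone 1 or 3, and 4 without control 6 or pregnancy 2. After hormones 0 of the 20 passed by limma, but 4 did without control 2, where 6.07% of all probe sets passed. With all arrays 8 had an unadjusted p under 0.05, beside 20.7% of all probe sets. The smallest p values were those of Gpnmb (0.87, SE 0.15, adjusted 0.0755) and Mmp12 (1.56, SE 0.35, adjusted 0.113). This list was drawn up with earlier results of these arrays known, so its counts are not independent evidence.

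**Figure D5:**
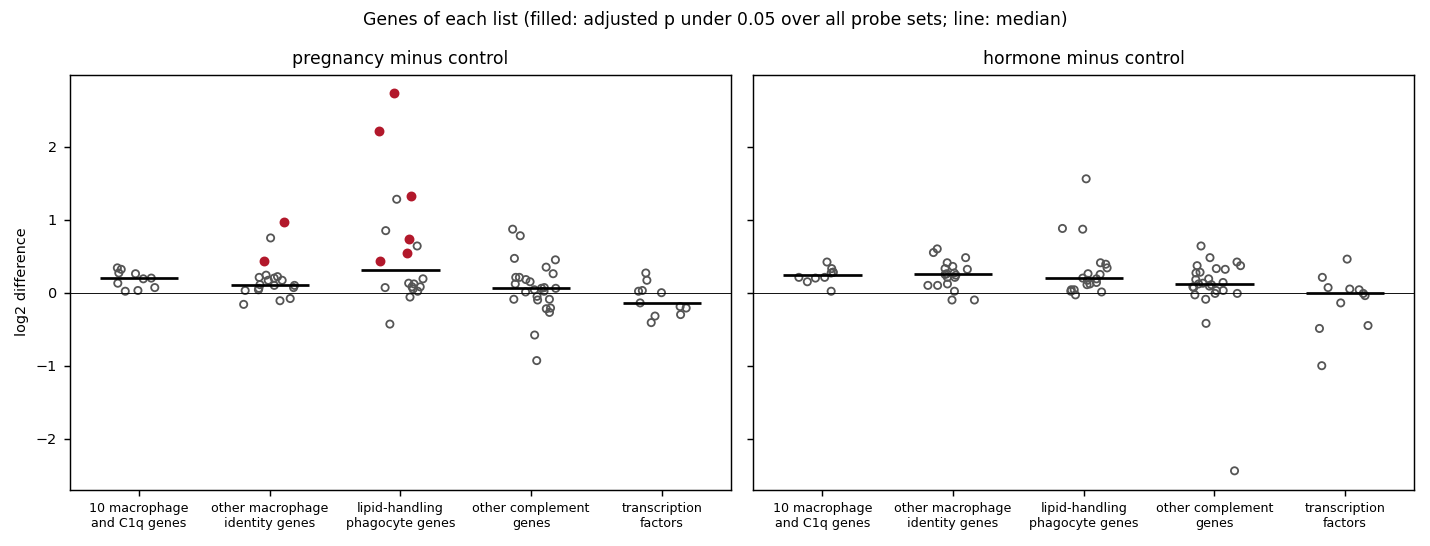
Log2 difference (y axis) of each gene in 5 lists (x axis) for pregnancy minus control and hormone minus control, with filled points for adjusted p under 0.05 over all probe sets and a line at the list's median. Genes without a present call in either group are not drawn but count in the median. After pregnancy the filled points are in the lipid-handling and the other macrophage lists, and the 10 genes lie between 0.02 and 0.34.

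Among ligands and partners of these receptors, the ligands did not pass. Csf1, a ligand of the Csf1r product, differed by 0.08 after pregnancy and 0.21 after hormones (SE 0.13), and Il34, the other ligand, by 0.17 and 0.38 (SE 0.18). Cx3cl1, the ligand for the Cx3cr1 product, differed by -0.18 after pregnancy and -0.42 after hormones (SE 0.17). Of 11 measured out of 14 ligands, co-receptors and partners, 1 passed by limma for pregnancy, Trem2, beside 0.197% of all probe sets. For hormones 0 passed by limma, and 6 had an unadjusted p under 0.05, beside 20.7% of all probe sets. The smallest p there was for Plcg2, a phospholipase downstream of DAP12 and B cell receptors (-0.71, SE 0.19, adjusted 0.139), followed by Trem2, which had no present call there either, at an adjusted p of 0.151. Without control 2, 2 genes passed downward, beside 6.07% of all probe sets. The list's median was -0.09 after pregnancy and -0.34 after hormones, but 0.13 and 0.16 without the 4 arrays rich in lymph node transcripts described below. Fcer1g was not measured.

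Transcription factors of macrophages gave 0 calls by limma among 11 measured out of 12 after either exposure. At an unadjusted p under 0.05 there were 0 after pregnancy, beside 21.9% of all probe sets, and 3 after hormones, beside 20.7%. Runx1 differed by -0.30 after pregnancy and -0.45 after hormones (SE 0.16), and Nr1h3, the oxysterol receptor LXRα, by 0.46 after hormones (SE 0.16). Neither passed.

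In the rest of the complement system, 0 of 32 measured genes passed by limma after either exposure. An unadjusted p under 0.05 was seen for 8 after pregnancy, beside 21.9% of all probe sets, and 10 after hormones, beside 20.7%. Masp1, a protease of the lectin pathway, was nearest after pregnancy (-0.58, SE 0.13, adjusted p 0.0697), followed by Cd59, which blocks the membrane attack complex (0.45, SE 0.12, adjusted p 0.0819). After hormones Cd59 differed by 0.48 (SE 0.12, adjusted p 0.132). Without control 2, 2 of these genes passed after pregnancy, beside 4.61% of all probe sets, and 5 after hormones, beside 6.07%. Mbl1, a mannose-binding lectin, had the other of the 2 smallest p values after hormones (adjusted 0.132), but neither hormone nor control arrays called it present, and its size is left out.

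Lymph node transcripts differed between arrays and were lowest in the hormone group. Their median difference was -0.82 after pregnancy and -1.96 after hormones, and 0 of 12 passed by limma. Counts at an unadjusted p under 0.05 were 0 after pregnancy, beside 21.9% of all probe sets, and 9 after hormones, beside 20.7%. The mean of 12 measured lymph node markers, relative to all arrays, ranged from -1.05 to 1.75 in pregnancy glands, from -1.31 to -0.11 in hormone glands and from -1.18 to 2.19 in control glands, with controls 1, 4 and 5 and pregnancy 3 the 4 richest. Without those 4 arrays only controls 2 and 6 remained in the control group. Calls after pregnancy by limma were 0 of the 10 genes, 0 of the 19 other macrophage genes and 1 of 20 lipid-handling genes, Gpnmb. The share over all probe sets was 0.0322%. Whether the smaller groups or the lymph node content changed these calls was not tested. A fit of all arrays with lymph node content as a covariate called 7 of the 20 lipid-handling genes by limma after pregnancy. Itgam (0.43, adjusted p 0.038) and Mpeg1 (1.04, adjusted p 0.0221) also passed there, beside 0.573% of all probe sets. In the fit without those 4 arrays, differences after pregnancy were 0.51 for Itgam, 1.26 for Mpeg1 and 1.36 for Gpnmb. They were 2.06 for Mmp12, 0.33 for Npc2 and 0.51 for Ctsd. Cd68 then differed by 0.48 after pregnancy and 0.39 after hormones, Tyrobp by 0.22 and 0.23, and Msr1 by 0.12 and 0.19. Across 11 measured muscle markers the mean reached 2.49 in a pregnancy gland, 3.90 in a hormone gland and 0.70 in a control gland, and without the 3 richest arrays, pregnancy 7 and 9 and hormone 4, 0 of the lipid-handling genes, and 0 of all 31042 probe sets, passed by limma. The differences were then 1.29 for Gpnmb, 2.28 for Mmp12, 0.40 for Npc2 and 0.45 for Ctsd. With all arrays they were 1.32, 2.22, 0.43 and 0.54. For monocyte and neutrophil markers (7 of 10 measured) the mean ran from -0.21 to 1.23 after pregnancy. With muscle content or lymph node content as a covariate, 0 of the 10 genes passed by limma in any comparison. Adipocyte markers were nominally higher for 8 of 9 after pregnancy (median 0.26) and 9 of 9 after hormones (median 0.36). Shares of all probe sets above 0 were 54.7% and 58.0%. Mast cell markers were nominally higher for 0 of 7 after pregnancy (median -0.43) and 1 of 7 after hormones (median -0.03). Fibroblast markers had medians of -0.26 after pregnancy and 0.03 after hormones. None of the adipocyte, mast cell or fibroblast markers passed by limma. After pregnancy 3, 6 and 4 of them had an unadjusted p under 0.05, and after hormones 5, 0 and 0 did. The shares over all probe sets were 21.9% and 20.7%. The part of these cells, and of monocytes and neutrophils, in the results was not tested.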

How the data were processed

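Total RNA of each gland (80 ng) was amplified with NuGEN Ovation V2 and hybridised to 1 array per rat, per the labels' protocols. The values used are the authors' log2 expression values, as deposited, and GCOS, RMA, MAS5 and affy are named in the submitters' processing notes, with versions not given in the sources used here. The deposited detection p-values and present calls were used only to describe detection, and a deposited table of fold changes and adjusted p-values only for comparison. A further 15 per-sample columns, of 5 arrays, were not used. The number of arrays limits the precision.

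After removal of 57 control probe sets from 31099, limma was run without a filter on 31042 (version 3.58.1, R 4.3.3, lmFit and eBayes, 1 mean per group over all 15 arrays, residual df 12), with Benjamini-Hochberg adjustment over all of them. Single genes were also tested by exact permutation, and correlations with 100000 permutations (numpy 2.4.6). The fit was tested on simulated data. The mean of both exposures shares its controls with each single comparison.

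The 10 genes and all lists were chosen with earlier results of these data known. Named besides them are the called genes of each list, up to 5 by smallest p, or the 2 with the smallest p where none was called, the ligands and partners Csf1, Il34, Cx3cl1, Trem2 and Fcer1g, and the 8 genes most like the mean of the 10. Of the genes this rule selects, 1 is not reported here. Alternatives were array weights, other moderation, centring, a detection filter, all probe sets of a gene, only the compared groups, a replicate block, marker covariates, and leaving out arrays.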

Additional observations from a re-analysis of the deposited data

How the results depend on the processing

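No gene of the 10 passed for pregnancy minus control, hormone minus control or pregnancy minus hormone in any alternative limma fit. Exact permutation tests, not adjusted, gave p under 0.05 for 2 of the 10 after pregnancy, Cd68 and Tyrobp. After hormones they gave it for 3, Cd68, Tyrobp and C1qa (0.0476 for C1qa), and for 0 in pregnancy minus hormone. The share over all probe sets was not computed for these permutation tests. For both exposures against controls, array weights gave 1 (Tyrobp, 0.25, adjusted p 0.0448 by limma, beside 2761 of all probe sets called), and leaving out 1 array gave 0 to 1. The median of the 10 genes, leaving out 1 array, was 0.12 to 0.22 after pregnancy, 0.17 to 0.29 after hormones, -0.20 to -0.02 for pregnancy minus hormone and 0.17 to 0.24 for the mean of both. With the replicate block 0 probe sets passed by limma in any comparison, and Csf1r in pregnancy minus control was -0.03 and Tyrobp in pregnancy minus hormone 0.04. The 9 same-numbered pairs of arrays correlated at -0.32 to 0.42 (3 over 0.1). Whether the numbers pair rats cannot be told from these correlations alone. Small differences changed sign. Without the 4 lymphoid-rich arrays Mrc1 after pregnancy was -0.06. With lymph node content as a covariate Cx3cr1 after hormones was -0.03, and Msr1 and Tyrobp in pregnancy minus hormone were 0.01 and 0.00. Tyrobp in that comparison was 0.01 with array weights and 0.05 without the 3 muscle-rich arrays, where Cd163 was 0.08. Leaving out 1 array, pregnancy minus control ran from -0.03 to 0.07 for Csf1r, -0.06 to 0.08 for Mrc1 and -0.02 to 0.11 for C1qa, hormone minus control from -0.03 to 0.08 for Cx3cr1, and pregnancy minus hormone from -0.23 to 0.10 for Cd163 and -0.05 to 0.03 for Tyrobp. The cause of these changes was not tested. Calls over all probe sets depended on single arrays: for pregnancy minus control, 61 passed with all arrays, 1430 without control 2 and 3 without control 4, and for hormone minus control 9 passed with all arrays and 1884 without control 2. For the lipid-handling genes after pregnancy, 7 passed with all arrays, 3 in a fit of the compared groups alone or with muscle content as a covariate, and 0 with the replicate block. The count was 8 with array weights, where 3.72% of all probe sets passed. It was 7 with lymph node content as a covariate, 6 with centring and 5 with trended, robust moderation. The 5 arrays per group and probe sets near background, such as that of Cx3cr1, limit what can be seen.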

Other observations

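Pregnancy 9 had a level of 1.23 for the mean of the monocyte and neutrophil markers relative to all arrays, against -0.31 to 0.20 on the other 14 arrays. S100a8, a calcium-binding protein of neutrophils and monocytes, read 9.65 on that array and 5.24 to 5.89 on the others, and S100a9, its partner, read 10.34 there and 6.07 to 7.22 elsewhere. The 10 macrophage and C1q genes averaged -0.04 on the same array, within the range of the other pregnancy arrays.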
